A study of Mus musculus with 24 samples.

Results

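Expression of 8 cholesterol genes was followed in 24 bulk RNA-seq libraries of MIN6, an insulinoma-derived line of mouse pancreatic β cells. The genes were 6 enzymes of the synthesis route (Hmgcs1, Idi1, Fdft1, Sqle, Lss and Cyp51) and 2 genes of its control (Srebf2 and Insig1). They were taken by symbol from the deposited table and were 8 of its 17696 listed genes, all measured in every library. None of the 8 encodes an uptake receptor, so genes of sterol uptake are described separately. Every line had received a lentiviral vector and been selected with puromycin, and clones were picked and chosen by their microRNA level. Scr cells carried a scrambled sequence, ZIP cells an inhibitor of miR-146a-5p, and OE cells a vector that overexpresses miR-146a-5p. Each line was analysed untreated or after 24 h with 5 ng/ml IL1β, 100 ng/ml IFNγ and 10 ng/ml TNFα (Scr+Cy, ZIP+Cy and OE+Cy), with 4 libraries per group. Scr and ZIP shared a vector type and a copGFP reporter, whereas OE used another vector with TurboRFP, so the effect of the microRNA, the vector and the clone cannot be told apart. The microRNA itself was not measured in these libraries, which leaves the line labels unchecked by it here. By qRT-PCR of untreated cells, the study reported miR-146a-5p as raised in OE and unchanged in ZIP relative to Scr. Untreated ZIP cells are therefore not shown to hold less of it than Scr cells. With cytokines, the study reported a rise of miR-146a-5p over untreated cells in each line, far larger in Scr than in ZIP or OE.

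Cholesterol is built from acetyl-CoA through mevalonate, isoprenoid units, squalene and lanosterol. The transcription factor SREBP2, encoded by Srebf2, turns on most genes of this route when membrane sterol is low. INSIG1 holds the precursor of SREBP2 in the endoplasmic reticulum when sterol is plentiful and is itself a target gene of the pathway, so its transcript is widely used as a readout of SREBP activity. In β cells, membrane cholesterol is known to bear on insulin granules and their release.

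The sequence of the manipulated microRNA is shown with its seed, bases 2 to 8, in capitals, as RefSeq gives it for GRCm38.p6 at chr11:43374435-43374456 on the minus strand.
mmu-miR-146a-5p: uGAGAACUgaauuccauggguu
The complement of the seed, AGTTCTC, was present in the longest 3′ UTR of 2 of the 8 genes, Hmgcs1 and Lss, and in 11.1% of 20979 genes with a 3′ UTR in GENCODE M21. The matches are shown in capitals because these are the places where the microRNA could pair by its seed. They lay at chr13:119707564-119707570 in Hmgcs1 and at chr10:76553808-76553814, chr10:76554888-76554894 and chr10:76554928-76554934 in Lss, all on the plus strand.
Hmgcs1: attcactagcaAGTTCTCtggatgatttt
Lss, the site nearest the stop codon: catgtaactccAGTTCTCagggaacccaa
Lss, the middle site: tcatgctgtggAGTTCTCcggacatgctg
Lss, the site nearest the transcript end: ccagtttagggAGTTCTCcgggctccgcg
A letter match is a description and not a measured site.

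RefSeq promoters were held for 6 of the 8 genes (Hmgcs1, Idi1, Lss, Cyp51, Insig1 and Srebf2) on GRCm38.p6. A sterol response element was sought as TCACCNCA on both strands in the 250 bases before the start of each gene, a spelling chosen after the promoters had been seen. It was found in 3 of the 6 and in 3.61% of 32851 promoters searched alike, but because the spelling was chosen on these promoters nothing is read from the difference between the shares. The 3 matches are shown in capitals because SREBP2 is known to act through such elements.
Hmgcs1, chr13:119690203-119690232, plus strand: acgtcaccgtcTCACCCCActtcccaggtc
Cyp51, chr5:4104767-4104796, minus strand: ataggccgagaTCACCTCAgcagcgcgtgg
Srebf2, chr15:82147096-82147125, plus strand: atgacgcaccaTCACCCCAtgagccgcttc
ATTGG, the letters of the CCAAT box on either strand, was in 6 of the 6 and in 33.8% of all promoters. The spelling TCACCNCA was not matched in the Idi1, Lss and Insig1 windows.

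The deposited values were estimated reads per gene, with 26657795 to 37168207 assigned reads per library. The 8 genes held between 220 and 8718 reads each, Idi1 having the fewest. Levels are given as CPM, read counts scaled to library size (edgeR CPM after TMM), which is not divided by transcript length and therefore compares libraries but not genes. Differences are log2 fold changes with their standard error (SE) from 1 edgeR model over the 24 libraries, and a gene passed at an adjusted p under 0.05 over all 17696 genes. Because labels do not state separate cultures, the p values measure only the spread between these libraries, and in bulk RNA fewer cells of a type and less RNA per cell cannot be told apart. Of 8 β cell markers, 8 reached 1 CPM in every library (summed level 22833 to 50403 CPM). They did not move together between lines. In OE against Scr, Ins1 (3.51), Ins2 (0.79), Iapp (1.58) and Slc2a2 (1.95) rose on the log2 scale. Pdx1 (-0.39), Nkx6-1 (-0.60) and Mafa (-0.55) fell there, and Chga did not pass. The part of these changes in the differences between lines was not tested. Summed Irf1, Cxcl10 and Nos2, which inflammatory cytokines are known to induce, were 18.7 to 70.7 CPM in untreated and 766 to 3460 CPM in treated libraries. Of 4 fibroblast markers, 0 reached 1 CPM in all 24 libraries, and their sum stood apart in the libraries numbered 1 of Scr (13.0 CPM), ZIP (35.9 CPM) and Scr+Cy (44.1 CPM), against 0.537 to 7.88 CPM in the others. Leaving these 3 out together is therefore reported where it changed a call. Of the fibroblast markers, Pdgfra also differed between lines. It was higher in ZIP than in Scr (2.05, edgeR adjusted p = 0.00267) and lower in OE (-3.18, adjusted p = 4.67e-04). Col1a1, Col1a2 and Dcn passed in neither contrast.

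**Figure D1:**
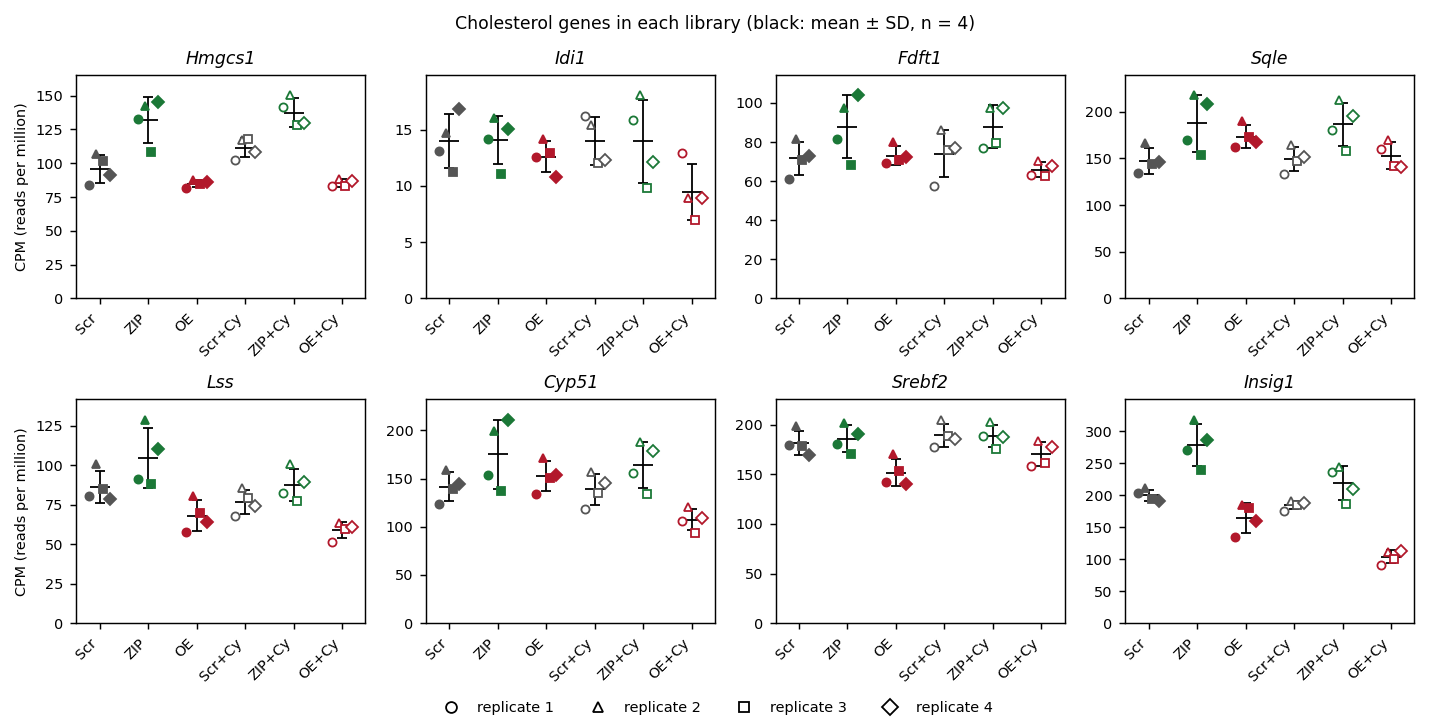
Level of each gene in every library, in CPM from 0, by group. Symbols mark the replicate number, filled for untreated and open for cytokine-treated libraries, and black bars are the mean ± SD of 4. Insig1 ranged most between groups, from a mean of 104 CPM in OE+Cy to 279 CPM in ZIP.

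Without cytokines, ZIP exceeded Scr for 3 of the 8 genes. Hmgcs1, Sqle and Insig1 rose, by 1.38-, 1.27- and 1.39-fold, and 0 of the 8 fell. Of all genes tested, 13.5% rose and 14.8% fell (28.3% passed). In this fit, which does not pair libraries, 3 of 8 passing is not far above 28.3%. The share of the 8 that rose was above 13.5%. Neither difference was tested. Estimates were above 0 for 8 of 8, with a median log2 fold change of 0.30 beside 0 for all genes. The libraries of this contrast were paired by replicate number, although the lowest same-number correlation was 0.141 and 4 of the 8 libraries correlated best with their own number. With that number as a block 6 of the 8 rose, Fdft1 (0.29, adjusted p = 0.00573), Lss (0.27, adjusted p = 0.00287) and Cyp51 (0.29, adjusted p = 0.00324) being added. The count was also 6 without Scr replicate 2 or without ZIP replicate 3, and 5 without ZIP replicate 1. Here and below, shares of all genes were counted only in the unblocked fit of all 24 libraries. Counts with the block or with libraries left out therefore have no background beside them.

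OE was lower than Scr for Lss, an enzyme of the route, and for the control genes Insig1 and Srebf2. Lss, Insig1 and Srebf2 fell to 0.789, 0.823 and 0.835 times the Scr level, and 0 of the 8 rose. Of all genes 25.6% fell and 24.5% rose (50.1% passed). Among the 8, the share passing in either direction was below 50.1%, but the share that fell was above 25.6%. Neither difference was tested. Sqle, Fdft1 and Cyp51 had positive estimates (0.23, 0.03 and 0.11), and the median of the 8 was -0.16. Sqle, which did not pass here (adjusted p = 0.0653), was called higher by DESeq2 (adjusted p = 0.0394), by limma (0.0482), with the groups compared alone (0.0159) and without Scr replicate 2 (0.0296). Without OE replicate 1 only Srebf2 passed.

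Cytokines left the 8 genes of Scr cells without a call. In Scr+Cy against Scr 0 of the 8 passed by edgeR, beside 17.8% of all genes (7.33% lower and 10.5% higher). DESeq2 and limma gave 0 as well. At an unadjusted p under 0.05 there was 1, Hmgcs1 (log2 fold change 0.22, adjusted p = 0.0662), which passed with the replicate block (adjusted p = 0.0288), without Scr replicate 2 (0.0284) and without Scr+Cy replicate 1 (0.0433). In ZIP+Cy against ZIP Insig1 alone fell, beside 12.8% of all genes lower, 13.6% higher and 26.4% passing. In OE+Cy against OE Cyp51 and Insig1 fell, beside 21.5% of all genes lower, 23% higher and 44.6% passing. With the block, Lss also fell in ZIP cells (-0.25, adjusted p = 0.00606), as it did without ZIP replicate 3 (adjusted p = 0.0448). In OE cells the block gave 6 calls, with Sqle (-0.18, adjusted p = 0.0343), Idi1 (-0.44, adjusted p = 0.0111) and Lss (-0.20, adjusted p = 0.0189) lower and Srebf2 (0.17, adjusted p = 0.0039) higher. Without OE+Cy replicate 1 the count in OE cells was 4, with Idi1 (adjusted p = 0.00787) and Srebf2 (adjusted p = 0.0325) added.

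With cytokines in both lines the contrast between OE and Scr was widest. In OE+Cy against Scr+Cy Hmgcs1, Idi1, Lss, Cyp51 and Insig1 fell, by 22.6% to 43.8%, and 0 rose, with a median log2 fold change of -0.37 beside 0.01 for all genes. Of all genes, 27.4% were lower, 26% were higher and 53.4% passed in this comparison. Leaving out the 6 libraries numbered 2 together, or OE+Cy replicate 3 alone, left 3 lower. In ZIP+Cy against Scr+Cy Hmgcs1 and Sqle rose, beside 12.9% of all genes higher, 15.1% lower and 28.1% passing. That count was 6 with the replicate block, adding Fdft1 (0.25, adjusted p = 0.0161), Lss (0.19, adjusted p = 0.032), Cyp51 (0.24, adjusted p = 0.0154) and Insig1 (0.24, adjusted p = 0.0241). It was 1, Hmgcs1, when the libraries numbered 1 of Scr, ZIP and Scr+Cy were left out, when Scr+Cy replicate 1 was, or when ZIP+Cy replicate 2 or 4 was.

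Against untreated Scr, which is the control of the contrasts above as well, Hmgcs1 and Sqle rose in ZIP+Cy (20.4% of all genes higher, 40.8% passing) and Idi1, Lss, Cyp51 and Insig1 fell in OE+Cy (29.1% of all genes lower, 30.4% higher, 59.5% passing). Sqle was lost in the former without ZIP+Cy replicate 2 (adjusted p = 0.0534), and Idi1 in the latter without OE+Cy replicate 3 (adjusted p = 0.052). A fold of 1.5 at an unadjusted p under 0.05 was reached by Insig1 alone, in OE+Cy against each of OE, Scr+Cy and Scr, beside 8.02%, 14.8% and 15.8% of all genes that fell by that rule.

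**Figure D2:**
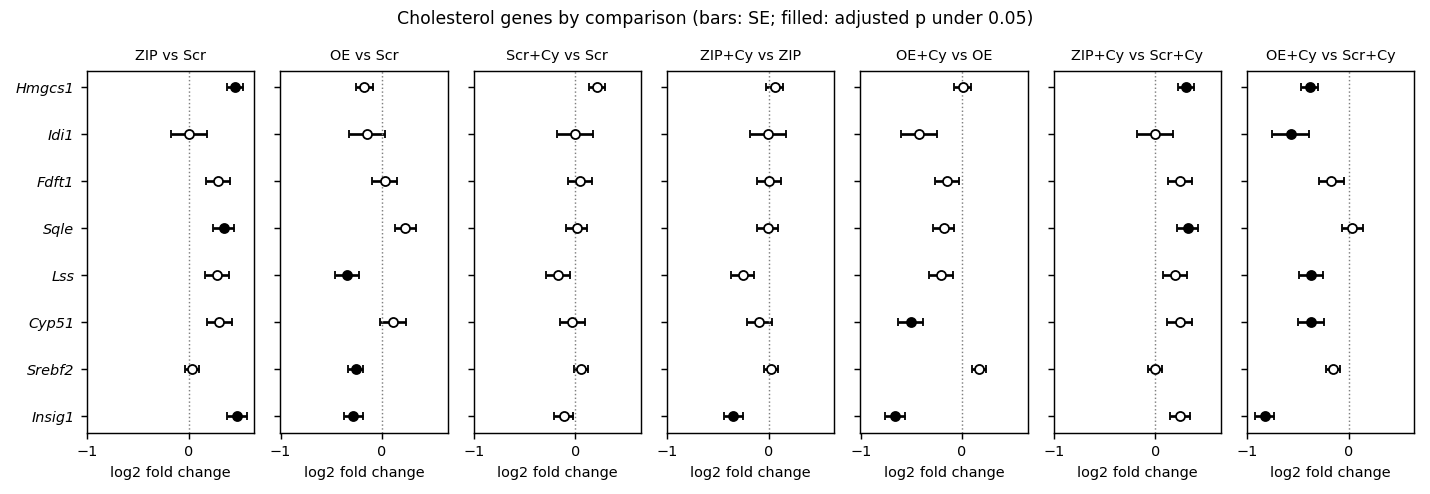
Log2 fold change of the 8 genes in 7 comparisons, with the SE as bars and filled points where the adjusted p was under 0.05. The 8 points for ZIP vs Scr lie at or above 0, while in OE+Cy vs Scr+Cy Sqle is the single gene above 0.

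Srebf2, the factor that drives the route, had the smallest range of group means among the 8. Its level was 180, 199, 178 and 170 CPM in Scr and 181, 202, 170 and 191 CPM in ZIP. It was 143, 170, 153 and 141 CPM in OE, where 3 of the 4 libraries lay below all of Scr. The fall in OE had a log2 fold change of -0.26 (SE 0.070, adjusted p = 0.00336), and it passed in each of 16 refits, with an adjusted p of 0.0193 at most. With cytokines it was 178 to 205 CPM in Scr+Cy, 175 to 203 CPM in ZIP+Cy and 159 to 184 CPM in OE+Cy, ranges that overlap. The estimate for OE+Cy against Scr+Cy was -0.15 (adjusted p = 0.0717), and it passed without OE+Cy replicate 2 (adjusted p = 0.0493). OE+Cy was called higher than OE without OE replicate 2 (0.24, adjusted p = 0.0103), without the 6 libraries numbered 2 (adjusted p = 0.0207), and by DESeq2, limma, RLE and filterByExpr (0.0362 to 0.0475). Across the 6 groups the highest mean was 1.25 times the lowest.

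Insig1, the sterol-sensing brake, had the largest range, the mean in ZIP being 2.68 times that in OE+Cy. Its level was 203, 211, 194 and 191 CPM in Scr. It was 271, 318, 240 and 286 CPM in ZIP, where every library lay above every Scr library. In OE it was 134, 185, 180 and 160 CPM, all below Scr. The log2 fold change was 0.48 in ZIP (SE 0.096, adjusted p = 4.42e-04) and -0.28 in OE (SE 0.096, adjusted p = 0.018). The OE value missed the threshold without OE replicate 1 (adjusted p = 0.0911) or without Scr replicate 2 (adjusted p = 0.0507).

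Cytokines brought Insig1 down in the ZIP and OE lines. Scr+Cy libraries held 176, 191, 184 and 187 CPM, just under those of Scr, with a log2 fold change of -0.11 that did not pass (adjusted p = 0.48). ZIP+Cy libraries held 236, 243, 186 and 209 CPM, partly overlapping ZIP, and the fall of 21.4% passed (adjusted p = 0.00866). Against Scr+Cy they were called higher without ZIP+Cy replicate 3 (adjusted p = 0.0195) and by DESeq2, RLE, filterByExpr and the groups alone (0.0311 to 0.0482). OE+Cy libraries held 90.8, 111, 101 and 112 CPM, below every library of the other 5 groups. The fall from OE was 36.9% (log2 fold change -0.66, SE 0.097, adjusted p = 4.72e-06), that from Scr+Cy was 43.8% (-0.83, SE 0.097, adjusted p = 1.2e-07), and that from Scr was 48.0% (-0.94, SE 0.098, adjusted p = 9.52e-09). These 3 falls passed in each of 16 refits. The group means therefore ran OE+Cy, OE, Scr+Cy, Scr, ZIP+Cy and ZIP from low to high, and of these neighbours Scr+Cy and Scr, and Scr and ZIP+Cy (adjusted p = 0.297), did not differ by the test. OE and Scr+Cy were not compared by a test and overlapped.

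The cytokine response of Insig1 differed between OE and Scr. The interaction was -0.55 (SE 0.137, adjusted p = 0.00573), and it was the 1 passing among the 8, beside 10.3% of all genes lower, 9.64% higher and 20% passing. Cyp51 had -0.48 (adjusted p = 0.0598) and passed with the replicate block (adjusted p = 0.00164), by DESeq2, in the fit of these 4 groups alone, and without OE replicate 1, Scr+Cy replicate 1, OE+Cy replicate 2 or Scr replicate 2 (0.0331 to 0.0428). For ZIP against Scr 0 of the 8 interactions passed by edgeR, by DESeq2 and by limma, and 0 had an unadjusted p under 0.05, beside 0.0565% of all genes passing (0.00565% lower and 0.0509% higher). The estimates were -0.23 to -0.01.

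Hmgcs1, which makes HMG-CoA at the head of the mevalonate route, was apart between ZIP and Scr with and without cytokines. It measured 83.5, 107, 102 and 91.0 CPM in Scr and 132, 142, 108 and 145 CPM in ZIP, without overlap. In OE it was 81.3, 87.3, 84.9 and 86.4 CPM, close together and partly within the Scr range. The rise in ZIP was 0.46 (SE 0.081, adjusted p = 9.99e-05) and the OE estimate was -0.17 (adjusted p = 0.0807). Without Scr replicate 1 OE was called lower than Scr (-0.23, adjusted p = 0.0215), and so was OE+Cy (-0.23, adjusted p = 0.0213). Leaving out the libraries numbered 1 of Scr, ZIP and Scr+Cy together gave both calls as well (adjusted p = 0.0226 and 0.0223). With cytokines it was 103, 117, 118 and 109 CPM in Scr+Cy and 141, 151, 128 and 130 CPM in ZIP+Cy, again apart. OE+Cy had 83.2, 88.5, 83.0 and 86.8 CPM, below every Scr+Cy library. The rise in ZIP+Cy against Scr+Cy was 0.30 (SE 0.081, adjusted p = 0.00642) and the fall in OE+Cy was -0.38 (SE 0.081, adjusted p = 3.22e-04). The level of OE cells hardly moved with cytokines (0.01, SE 0.081).

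Idi1, the isomerase of isopentenyl diphosphate, had the fewest reads of the 8 and a wide spread within ZIP+Cy and OE+Cy (coefficients of variation 26.4% and 26.5%). It ranged over 11.3 to 16.8 CPM in Scr, 11.1 to 16.0 in ZIP, 10.8 to 14.1 in OE, 12.0 to 16.2 in Scr+Cy and 9.85 to 18.1 in ZIP+Cy. OE+Cy had 12.9, 8.94, 6.95 and 8.90 CPM, 3 of its 4 libraries lying below every other library. The fall against Scr+Cy was -0.57 (SE 0.182, adjusted p = 0.0105). It missed the threshold without OE+Cy replicate 3 (adjusted p = 0.0541) and without the 6 libraries numbered 2. The change against OE was -0.42 (adjusted p = 0.0621), and it passed without OE replicate 4 (-0.49, adjusted p = 0.0482).

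Fdft1 and Sqle sit at the step to squalene and just after it. Fdft1, squalene synthase, ranged over 61.3 to 81.7 CPM in Scr, 68.4 to 104 in ZIP, 69.4 to 79.8 in OE, 57.5 to 86.0 in Scr+Cy, 77.2 to 97.5 in ZIP+Cy and 62.5 to 70.1 in OE+Cy, and it passed in no comparison of the unblocked model over all 24 libraries. It was called lower in OE+Cy than in Scr+Cy when the libraries numbered 1 of Scr, ZIP and Scr+Cy were left out (-0.27, adjusted p = 0.0428). It was called higher in ZIP+Cy than in Scr without ZIP+Cy replicate 1 (0.0332), Scr replicate 2 (0.0282) or ZIP+Cy replicate 3 (0.0422), and by DESeq2, RLE, filterByExpr and the groups alone (0.0282 to 0.0481). Sqle, squalene epoxidase, is a rate-limiting step late in the route. It measured 134, 166, 144 and 146 CPM in Scr, 170, 218, 153 and 209 CPM in ZIP and 162, 190, 173 and 167 CPM in OE. In ZIP and in OE 3 of the 4 libraries lay above every Scr library, and the estimates were 0.35 in ZIP (SE 0.103, adjusted p = 0.0132) and 0.23 in OE (SE 0.103, adjusted p = 0.0653). The ZIP call was lost without ZIP replicate 2 (adjusted p = 0.0708) or ZIP replicate 4 (adjusted p = 0.0528). With cytokines it was 133 to 164 CPM in Scr+Cy, 158 to 212 CPM in ZIP+Cy and 140 to 170 CPM in OE+Cy. The ZIP+Cy rise against Scr+Cy was 0.32 (SE 0.103, adjusted p = 0.0213) and was lost without Scr+Cy replicate 1 (0.0753), ZIP+Cy replicate 2 (0.0737) or ZIP+Cy replicate 4 (0.0568). Sqle was the one gene of the 8 with a positive estimate in OE+Cy against Scr+Cy (0.04, adjusted p = 0.789).

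Lss and Cyp51 follow, the first closing squalene epoxide to lanosterol and the second removing a methyl group from it. Lss measured 80.7, 101, 85.1 and 78.4 CPM in Scr, 91.4, 129, 88.0 and 110 CPM in ZIP and 57.6, 80.4, 70.0 and 64.1 CPM in OE. Its libraries in OE lay mostly under those of Scr, with 1 overlapping. The OE value was -0.34 (SE 0.117, adjusted p = 0.0179), lost without OE replicate 1 (adjusted p = 0.0745) or Scr replicate 2 (adjusted p = 0.0845), and the ZIP estimate was 0.28 (adjusted p = 0.0793). With cytokines it was 67.7, 85.4, 79.2 and 73.9 CPM in Scr+Cy and 51.6, 63.5, 59.9 and 61.1 CPM in OE+Cy, without overlap (-0.37, SE 0.118, adjusted p = 0.00996).

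Cyp51 measured 124, 159, 139 and 145 CPM in Scr, 153, 199, 137 and 211 CPM in ZIP and 134, 172, 151 and 154 CPM in OE. All 3 ranges overlap. OE+Cy had 106, 121, 94.0 and 109 CPM, below every OE library, and the fall was -0.51 (SE 0.126, adjusted p = 0.00184). Against Scr+Cy, at 118, 156, 135 and 146 CPM, it was -0.37 (SE 0.126, adjusted p = 0.0161). That call was lost without Scr+Cy replicate 2 (0.0601), without OE+Cy replicate 3 (0.0667) and without the 6 libraries numbered 2.

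Libraries of 1 group differed from each other in the same way for most of the 8 genes. In the library numbered 2, 8 of 8 genes lay above the group mean in Scr, ZIP, OE, Scr+Cy and ZIP+Cy, and 7 of 8 in OE+Cy. In replicate 3 of ZIP and of ZIP+Cy 0 of 8 did. The mean deviation of the 8 genes was 0.16 in Scr replicate 2, 0.20 in ZIP replicate 2 and -0.27 in ZIP replicate 3, on the log2 scale. These deviations are of the size of several differences between lines, and what the number stands for is not explained by the labels.

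**Figure D3:**
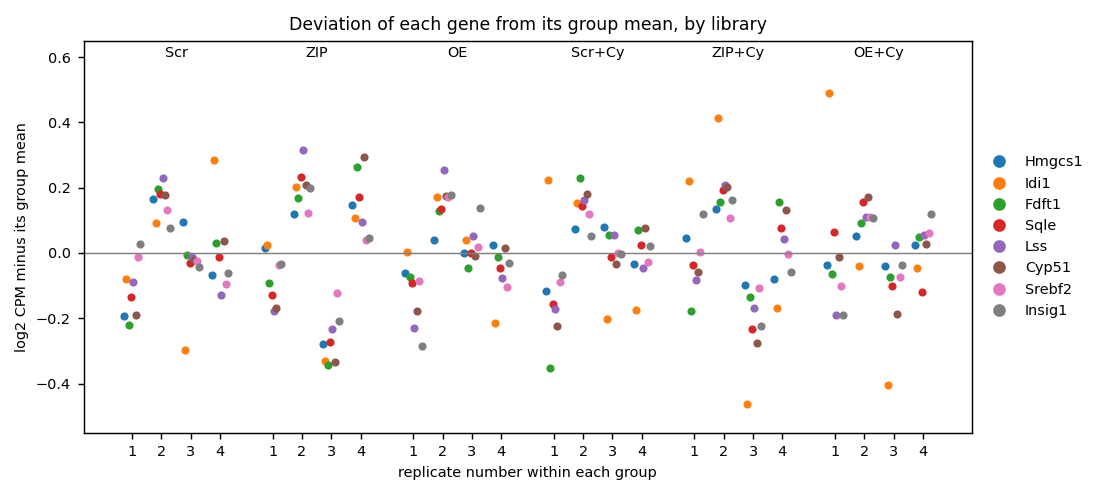
Deviation of each gene from its group mean (log2 CPM) in each library, 4 libraries per group in the order of their replicate numbers, 1 point per gene. Libraries numbered 2 sit above 0 in the 6 groups for at least 7 of 8 genes, and replicate 3 of ZIP and ZIP+Cy below 0.

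The wider route was described with 20 synthesis enzymes, of which the 6 above are part. In ZIP against Scr 7 of these rose and 0 fell, with a median log2 fold change of 0.26, beside 13.5% of all genes higher. Tm7sf2, a sterol reductase, rose by 0.69 and Msmo1, which removes methyl groups from the sterol, by 0.59. In OE against Scr 7 of the 20 fell, among them Hsd17b7 (-0.83) and Tm7sf2 (-0.76), beside 25.6% of all genes lower. In OE+Cy against Scr+Cy 15 of the 20 fell (median -0.38), beside 27.4%. With cytokines 8 of the 20 fell in OE cells, 3 in ZIP cells and 1 in Scr cells, beside 21.5%, 12.8% and 7.33% of all genes, so the ZIP and Scr counts are close to the background.

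**Figure D4:**
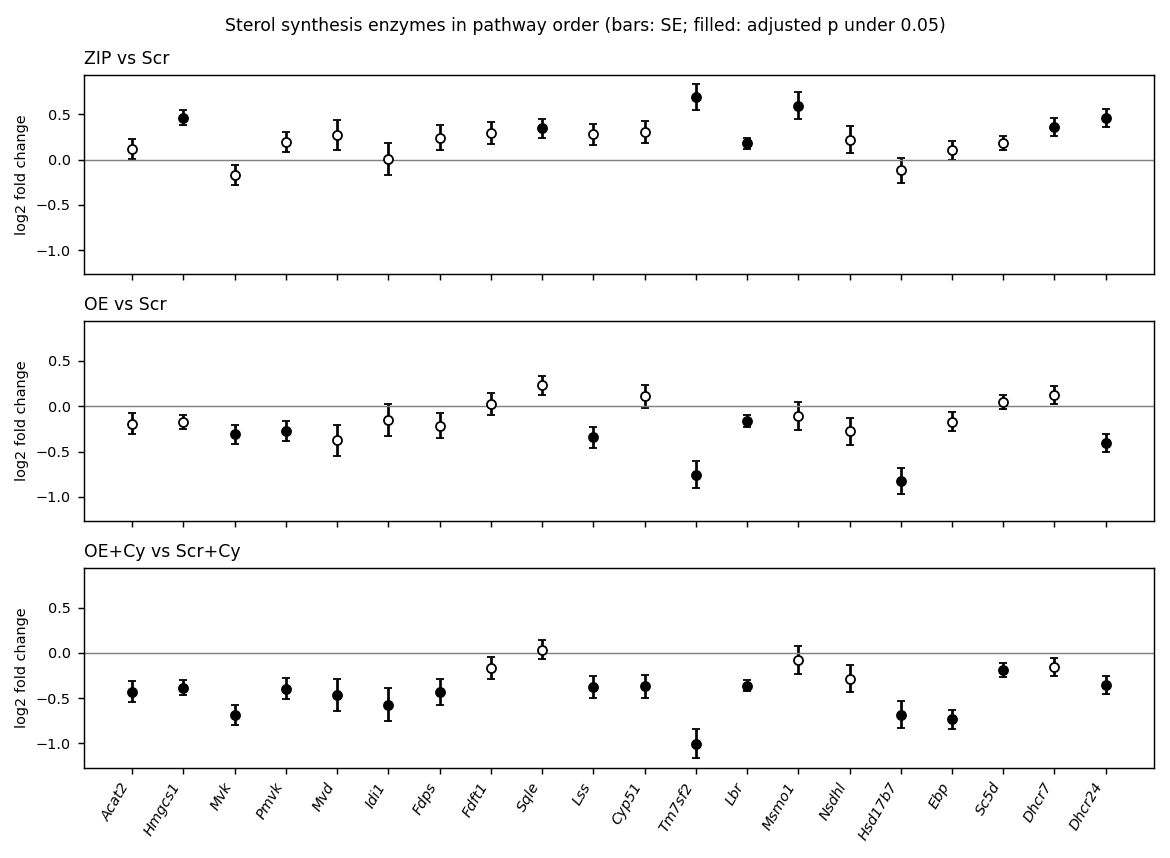
Log2 fold change of 20 sterol synthesis enzymes in the order of the pathway, with the SE as bars and filled points where the adjusted p was under 0.05, for ZIP vs Scr, OE vs Scr and OE+Cy vs Scr+Cy. In the OE vs Scr and OE+Cy vs Scr+Cy panels 7 and 15 enzymes are below 0 with filled points.

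Genes of sterol uptake and lysosomal release were lower in OE. Of 10 described here, 7 fell and 0 rose in OE against Scr (median log2 fold change -0.70, beside 25.6% of all genes lower), and 4 fell and 0 rose in ZIP against Scr (median -0.26, beside 14.8%). Lrp1, a lipoprotein receptor, fell by 2.29 on the log2 scale in OE and by 0.74 in ZIP, Vldlr, another lipoprotein receptor, fell by 1.38 in OE, and Lipa, the lysosomal acid lipase, fell by 1.19 in OE and by 0.95 in ZIP. Neighbours of a gene were taken as other genes within 5 Mb with a mean of at least 1 CPM. Those of Lipa also lay low, with medians of -0.47 in OE and -0.38 in ZIP. The control list held 7 genes (Srebf1, Srebf2, Scap, Insig1, Insig2, Mbtps1 and Mbtps2). In OE against Scr Mbtps1 (-0.36), Srebf1 (-0.30), Srebf2 and Insig1 fell, beside 25.6% of all genes lower. Insig2 rose there (0.23), beside 24.5% of all genes higher. In ZIP against Scr 3 rose, Insig1, Insig2 and Scap, beside 13.5% of all genes higher. Scap, the escort of SREBP2, rose most (0.83). The 117 neighbours of Scap had a median of 0.79 in that comparison, with 97.4% above 0. The part of the surrounding region in the Scap value was not tested. Around the 8 genes themselves such medians were between -0.14 and 0.23 in the 5 comparisons checked.

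Fatty acid synthesis, which the related factor SREBP1 mainly drives, moved as well. Of 10 genes 4 rose and 0 fell in ZIP, beside 13.5% of all genes higher and 14.8% lower, and 1 rose and 7 fell in OE, beside 24.5% and 25.6%. Scd1 and Scd2, the desaturases of stearoyl-CoA, fell by 1.66 and by 1.12 in OE on the log2 scale. The 97 neighbours of each, taken as above, had a median of -0.41 in OE against Scr, with 10.3% above 0. In ZIP against Scr the median was -0.44. The part of the surrounding region in these values was not tested. With cytokines 8 fell in ZIP cells, 8 in OE cells, where Scd2 fell by 1.29, and 4 in Scr cells, beside 12.8%, 21.5% and 7.33% of all genes lower. The 1 that rose in each line was Me1, malic enzyme, by 0.38 in Scr, 0.64 in ZIP and 0.81 in OE cells. The 8 isoprenoid branch genes gave 0 calls in ZIP by edgeR (1 at an unadjusted p under 0.05), and 3 rose and 1 fell in OE. Of 11 listed genes for sterol efflux, storage and oxysterols 3 rose and 2 fell in ZIP, and 0 rose and 3 fell in OE. Apoe, an apolipoprotein of sterol export, changed by -2.41 on the log2 scale in ZIP. Its level was low, with a mean of 8.48 CPM in Scr and 0.620 to 4.13 CPM in the ZIP libraries. In OE Cyp46a1, which hydroxylates cholesterol, fell by 1.78, from a low mean of 4.17 CPM in Scr to 1.21 CPM. Abca1, the cholesterol exporter, fell by 1.46 in OE. The isoprenoid and efflux counts are read beside the same shares of all genes, which they do not clearly exceed. Markers of other islet cells moved in opposite directions in OE. Gcg, the glucagon gene, fell against Scr (log2 fold change -2.80, adjusted p = 5.89e-07), Sst, the somatostatin gene, rose (3.97, adjusted p = 4.9e-05, with OE at 0.816 to 1.93 CPM), and Ppy, pancreatic polypeptide, rose from 0 in every Scr library to 6.04 to 10.9 CPM (adjusted p = 1.6e-09). The sum of Gcg, Sst and Ppy was 246 to 369 CPM in Scr, 101 to 305 in ZIP, 45.9 to 56.0 in OE and 8.94 to 34.7 in OE+Cy, Ppy being at 0 in every Scr, ZIP and Scr+Cy library. Their part in the OE values was not tested.

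Over the 24 libraries, the 10 genes whose standardised profile lay nearest the mean profile of the 8 were Tmem41b, Nceh1, H2bc4, Serpini1, Mvd, Msmo1, Sc5d, Qpctl, Ostm1 and Nsdhl. The root mean square distance was 0.353 to 0.466, beside a median of 1.38 over 9738 genes. Mvd, Msmo1, Sc5d and Nsdhl are enzymes of the route. Of the 8 themselves Lss (0.382) and Cyp51 (0.396) lay nearest, and Sqle (0.673), Srebf2 (0.752) and Idi1 (0.775) farthest.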

How the data were processed

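RNA from 24 libraries (6 groups of 4) was analysed from 2 deposited tables. Per the submitters' processing notes, the authors used FastQC, STAR 2.7.8a with mm10 as the genome, Partek 11.0.24.0204 and DESeq2. The methods of the study name other versions of STAR and Partek, and RefSeq transcripts as the annotation. Use of strand is not given in the sources used here. The authors deposited estimated counts per gene, of which 30.3% were not whole, without normalization, and a normalized signal equal to those counts divided by 1 factor per library. Every listed gene had at least 10 reads in total. Columns of samples outside the series numbered 0.

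Estimated counts were rounded and fitted in edgeR 4.0.16 (R 4.3.3) with TMM and 6 group means. Contrasts were tested with glmQLFit and glmQLFTest and Benjamini-Hochberg adjustment over 17696 genes, and the SE is the size of the log2 fold change divided by the square root of F. The scripts were tested on simulated data. Members are named in full. From the other lists, at most 3 genes per comparison with a fold of at least 1.5 are named, and others were chosen after their values were seen. Some genes of the lists are not reported here and were left out of the list counts. The members and lists were chosen with earlier results of these data known. Alternatives were DESeq2 1.42.0, median ratio factors (RLE), filterByExpr (14535 genes), limma 3.58.1 on log2(signal + 1), the groups compared alone, the thresholds of the study (a fold of 1.5 and an unadjusted p under 0.05), a replicate block, and leaving out libraries.

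The labels give groups the same replicate numbers. Over 12670 genes, the deviations of same-numbered libraries from their group means correlated above 0.1 for each number between Scr and ZIP (0.141 to 0.634), Scr and Scr+Cy (0.413 to 0.626), ZIP and ZIP+Cy (0.261 to 0.397), OE and OE+Cy (0.162 to 0.455) and Scr+Cy and ZIP+Cy (0.191 to 0.370). Between Scr and ZIP 4 of 8 libraries correlated best with their own number. Descriptions of the libraries give each number a code that all 6 groups share, without saying what it stands for, so pairing was decided from the data, and the other contrasts were treated as unpaired although they share the codes. The likeness measure used log2 CPM centred and scaled to unit SD, over genes with a mean of at least 10 CPM. Arithmetic used Python 3.11.15 and matplotlib 3.10.9.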

Additional observations from a re-analysis of the deposited data

Results flagged for a closer look

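Among the comparisons of cytokine responses between lines, Insig1 in OE against Scr was the 1 passing result of the 8 genes. For OE 20% of all genes passed (10.3% lower), so this result is not set apart from the background. Its response in OE exceeded that in Scr in the downward direction (interaction -0.55, SE 0.137, edgeR adjusted p = 0.00573), with OE+Cy at 90.8, 111, 101 and 112 CPM and OE at 134, 185, 180 and 160 CPM. All 4 treated OE libraries lay below all 4 untreated ones. No library stood far from the others of its group by Dixon's test in the 48 groups checked (8 genes in 6 groups).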

How the results depend on the processing

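Of the alternatives, none turned the direction of a call. The replicate block moved the counts of genes passing, with libraries paired, to 6 (ZIP vs Scr), 1 (Scr+Cy vs Scr), 2 (ZIP+Cy vs ZIP), 6 (OE+Cy vs OE) and 6 (ZIP+Cy vs Scr+Cy). In contrasts whose libraries were not paired, where 3 to 8 of 8 libraries correlated best with their own number, the block gave 5 for OE vs Scr (4 lower, with Hmgcs1 added, and Sqle higher, adjusted p = 0.00592), 6 for OE+Cy vs Scr+Cy, adding Srebf2 (-0.15, adjusted p = 0.00698), 4 for ZIP+Cy vs Scr and 2 for the OE interaction. DESeq2 gave 5 for ZIP vs Scr and 2 for the OE interaction, which the groups compared alone also gave. With a fold of 1.5 and an unadjusted p under 0.05 the count was 1, Insig1, in OE+Cy vs OE, OE+Cy vs Scr+Cy and OE+Cy vs Scr, and 0 in the other 6 contrasts of groups. Leaving out the libraries numbered 1 of Scr, ZIP and Scr+Cy gave 1 in ZIP+Cy vs Scr+Cy, and leaving out the 6 numbered 2 gave 3 in OE+Cy vs Scr+Cy, both chosen after seeing the data. Leaving out 1 library gave 2 to 6 (ZIP vs Scr), 1 to 4 (OE vs Scr), 0 to 1 (Scr+Cy vs Scr), 1 to 2 (ZIP+Cy vs ZIP), 2 to 4 (OE+Cy vs OE), 1 to 3 (ZIP+Cy vs Scr+Cy), 3 to 6 (OE+Cy vs Scr+Cy), 1 to 3 (ZIP+Cy vs Scr), 3 to 5 (OE+Cy vs Scr), 0 to 0 (ZIP interaction) and 1 to 2 (OE interaction). The cause of these changes was not tested, and shares of all genes were not counted in the refits. With 4 libraries per group, most estimates of the 8 genes were under 0.5 on the log2 scale, with an SE of 0.070 to 0.254, so values that did not pass are not shown to be equal.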
